A study of Mus musculus with 2 samples.

Results

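Trp63, Snai1, Snai2, Zeb1, Zeb2, Twist1, Twist2, Vim, Cdh1 and Cdh2 were taken by name as the 10 genes that mark or control basal and mesenchymal states, out of 25810 gene symbols in the tables. All 10 were detected in both libraries and all 10 passed the minimum of 1 RPM (a gene's reads scaled by the mapped reads of its library) in at least one library, as did 14026 genes in all. The samples were mammary epithelial cells from the inguinal glands of mice at day 3 of lactation, either wild type (WT) or Igfbp7-/-, a whole-body knockout in which the first coding exon of Igfbp7 is deleted. The labels give a C57BL/6 background for both and the methods describe a CD1 background, and neither says how many animals a library holds. Cells bearing blood and endothelial markers had been removed with magnetic beads, poly(A) RNA was selected, and each genotype was sequenced as 1 library on the SOLiD platform.

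Epithelial cells hold together through E-cadherin, the product of Cdh1, and lose that contact when factors of the Snail, Zeb and Twist families repress Cdh1 and other epithelial genes, a programme called epithelial-mesenchymal transition. Vim, which encodes the intermediate filament vimentin, and Cdh2, which encodes N-cadherin, are its usual mesenchymal readouts. Trp63 encodes p63, the transcription factor of the p53 family on which basal epithelium depends. In the mammary gland the basal layer consists of contractile myoepithelial cells around the luminal cells that make milk, and the connective tissue around both holds fibroblasts, vessels and immune cells that express Vim and Zeb genes of their own.

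With 1 library per genotype no difference has a replicate check and no p-value is given. The WT library had 34327854 mapped reads, 82.3% of them on listed genes, and the Igfbp7-/- library had 35016847, with 72.3% on listed genes. A gene is described as higher or lower in the Igfbp7-/- library where the ratio of its RPM, after adding 0.1 RPM, was at least 1.5. Intervals are 95% intervals for counting error, exact Poisson for a level and Clopper-Pearson for a ratio. They were computed on read pairs because 75.8% and 74.1% of the low counts were even, and they do not cover variation between animals or preparations. Levels of different genes are compared as RPKM, which divides by transcript length. Igfbp7 itself had 5224 reads in WT and 37 in Igfbp7-/-, or 152.2 against 1.06 RPM, which is the direction of the labels.

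Of the 10 genes, Snai1 was higher in the Igfbp7-/- library, Trp63, Zeb1, Vim and Cdh2 were lower, and Snai2, Zeb2, Twist1, Twist2 and Cdh1 stayed within 1.5-fold. Over all 14026 genes, 44.5% passed that ratio in one direction or the other, 21.4% as higher and 23.0% as lower. One higher gene of 10 is below the first share and 4 lower genes of 10 are above the second, but with 10 genes a single gene moves either share by 10 percentage points. The 10 genes had a median log2 ratio (Igfbp7-/- over WT) of -0.44, against 0.03 for all genes, whose middle 50% ran from -0.52 to 0.51. Of the 10, 7 lay below 0, as did 6782 of the 14026 genes. Trp63, Zeb1, Vim, Cdh2 and Snai1 lay outside that middle range, as 50% of all genes do by definition.

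**Figure D1:**
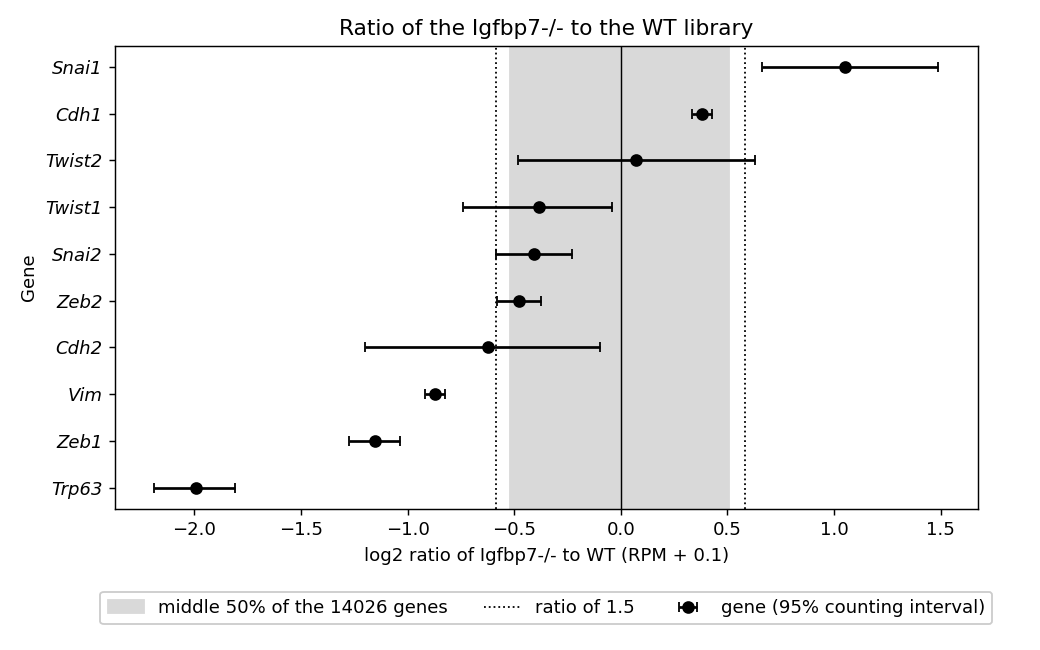
Log2 ratio of the Igfbp7-/- to the WT library for each of the 10 genes (x axis, from RPM + 0.1; y axis, gene), with points for ratios, bars for the 95% counting interval, a grey band for the middle 50% of the 14026 genes and dotted lines at a ratio of 1.5. Trp63 lies farthest to the left at -1.99 and Snai1 farthest to the right at 1.05, and the intervals of Twist2 and Cdh2 are the widest of the 10.

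Per transcript length the 10 genes covered a wide range. In WT the order from high to low RPKM was Vim, Cdh1, Zeb1, Snai2, Trp63, Zeb2, Twist1, Snai1, Twist2 and Cdh2, where the counting intervals of Trp63 and Zeb2 overlapped, as did those of Snai1 and Twist2. In Igfbp7-/- the order was Vim, Cdh1, Snai2, Zeb1, Zeb2, Snai1, Twist1, Trp63, Twist2 and Cdh2, where the overlapping neighbours were Zeb1 with Zeb2, Snai1 with Twist1, and Trp63 with Twist2. Vim, Cdh1 and Cdh2 thus kept their places at the ends, and the factors between them changed order. Trp63 went from rank 3645 of the 25810 gene symbols in WT to rank 8491 in Igfbp7-/-, while Snai1 went from rank 8935 to rank 6461.

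**Figure D2:**
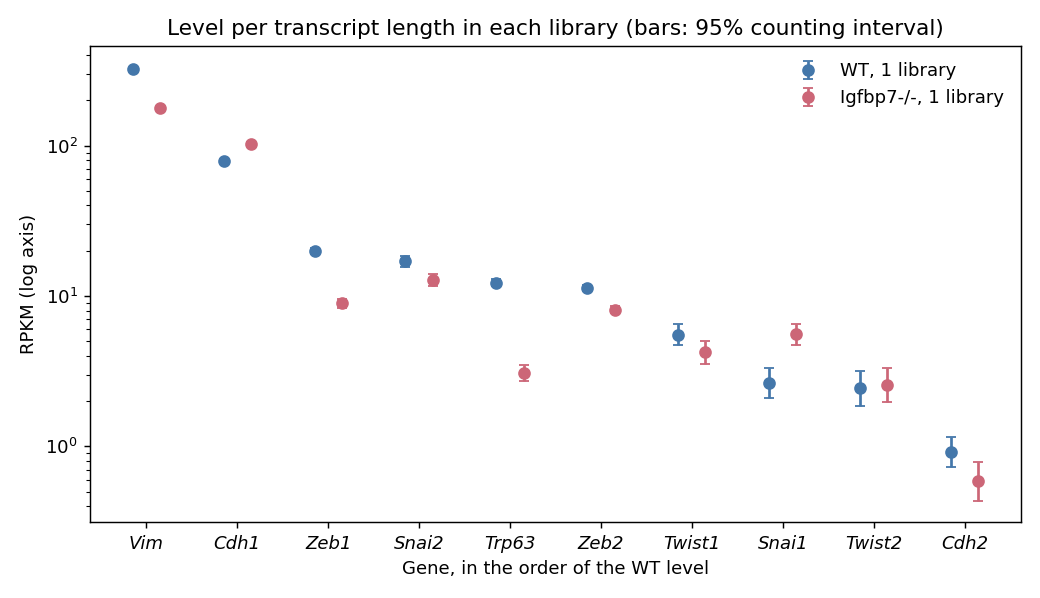
RPKM of the 10 genes (log y axis) in the WT library (blue) and the Igfbp7-/- library (red), with genes on the x axis in the order of the WT level and bars for the 95% Poisson counting interval. Vim and Cdh1 stand above the factors in both libraries, the blue and red points of Trp63 lie farthest apart, and Snai1 is the factor whose red point is clearly above its blue point.

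Trp63 spans chr16:25683849-25892188 on the plus strand of mm9 (NCBIM37) and has 8 annotated transcripts. The table holds a single count for the gene, so the isoforms with and without the N-terminal transactivation domain, which start at different promoters, cannot be told apart. Trp63 had 2270 reads in WT and 580 in Igfbp7-/-, or 66.1 and 16.6 RPM. Its RPKM was 12.3 (11.6 to 13.0) in WT and 3.08 (2.73 to 3.45) in Igfbp7-/-. The level was 3.97-fold lower in Igfbp7-/-, a log2 ratio of -1.99 (-2.19 to -1.81), and the gap between the libraries was far larger than the counting error of either.

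The genes of basal epithelium, many of them known p63 targets, were mostly lower as well. Of 24 listed genes 22 passed the minimum, 13 were lower, 1 was higher and 8 lay within 1.5-fold, with a median log2 ratio of -1.04, against the 0.03 of all genes. As shares, 59.1% were lower and 4.55% higher, where 23.0% and 21.4% of all genes were. Krt15, a keratin gene placed in this list, had the lowest ratio of the list at 48.2 RPM in WT and 3.48 in Igfbp7-/-. Lama3, the alpha chain of laminin-332 that anchors basal cells to the basement membrane, had 404.9 and 75.3 RPM. The single gene above 1.5-fold was Itgb4, the beta4 integrin subunit that binds laminin-332, with 29.9 RPM in WT and 87.9 in Igfbp7-/-. Its partner subunit Itga6 had 287.2 and 196.8 RPM, within 1.5-fold, so the genes of the hemidesmosome receptor subunits differed in opposite directions.

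Most markers of the cells that express Trp63 were lower too. All 8 myoepithelial markers were detected in both libraries. Of the 8, 7 were lower in Igfbp7-/- and none was higher, where 23.0% of all genes were lower and 21.4% higher. The summed RPM of the 8 markers was 3719 in WT and 1186 in Igfbp7-/-. Of those 8 markers, the basal keratins Krt5, Krt14 and Krt17, are also among the 24 basal genes. In a bulk sample fewer cells of a type and less RNA per cell cannot be told apart. Within a library, Trp63 RPKM was 0.0465 (0.0436 to 0.0494) of that of the basal keratin Krt5 in WT and 0.0370 (0.0327 to 0.0417) in Igfbp7-/-, and against Krt14 it was 0.0633 (0.0594 to 0.0675) and 0.0348 (0.0308 to 0.0394). Relative to Acta2, the smooth muscle actin of myoepithelial cells, it was 0.0208 (0.0196 to 0.0221) in WT and 0.0242 (0.0214 to 0.0272) in Igfbp7-/-. Trp63 was therefore lower per unit of Krt5 or Krt14 and not lower per unit of Acta2. The 8 markers ran from a log2 ratio of -2.93 for Cnn1 to 0.21 for Oxtr, with a median of -1.51. The comparison thus depends on the marker chosen. The other relatives of Trp63 were sparse or steady, since Trp53 had 51.3 and 47.8 RPM and Trp73 had 14 and 18 reads.

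The Snail genes encode zinc finger repressors that bind E-boxes in the promoters of Cdh1 and other epithelial genes, and Snai2, also called Slug, is known as a gene of basal mammary cells. Snai1 (chr2:167363695-167368314, plus strand, mm9) had 147 reads in WT and 315 in Igfbp7-/-, or 4.28 and 9.00 RPM. Its RPKM was 2.65 (2.08 to 3.34) and 5.58 (4.74 to 6.52). Snai1 was the only one of the 10 that passed 1.5-fold upwards, at 2.08-fold and a log2 ratio of 1.05 (0.66 to 1.49), and the lower bound of that interval is still above a ratio of 1.5. It remained a low gene in both libraries.

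Snai2 (chr16:14705945-14709488, plus strand, mm9) went the other way without passing 1.5-fold. It had 1215 reads in WT and 935 in Igfbp7-/-, or 35.4 and 26.7 RPM, and its RPKM was 17.0 (15.7 to 18.4) and 12.8 (11.7 to 14.0). The log2 ratio was -0.41 (-0.58 to -0.23). Snai2 RPKM was 6.40 (5.02 to 8.26) times that of Snai1 in WT and 2.30 (1.91 to 2.77) times in Igfbp7-/-, intervals that do not overlap, so the balance within the family differed between the libraries by more than counting error. The sum of both Snail genes hardly differed, at 19.6 RPKM in WT and 18.4 in Igfbp7-/-. Per unit of Krt5, Snai2 was 0.0642 (0.0591 to 0.0697) in WT and 0.154 (0.139 to 0.170) in Igfbp7-/-, and against Trp63 it was 1.38 (1.25 to 1.53) and 4.16 (3.59 to 4.84). Snai2 was thus lower by less than Krt5 or Trp63. Snai3, the remaining gene of the family, had 35 and 34 reads.

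Snail and Zeb factors bind the E-box CAGGTG, which reads CACCTG on the other strand. It was looked for on both strands in RefSeq promoter windows of 300 bases (GRCm38.p6), 250 before and 50 after each annotated start. Of 32817 windows, 20.2% held it. Among the 10 genes, 5 had windows, 8 in all, and the window of Snai1 was the only one with a match, 126 bases before the start. Trp63, Snai2, Zeb1, Cdh1 and Cdh2 had no window, so their promoters were not searched. For that reason the share of the 10 genes is not compared with that of all windows. Snail is known to bind its own promoter, so the stretch around the match is shown, with the E-box in capitals, from chr2:167538042-167538101 on the plus strand. A match of letters is a description of the reference and not a measured binding site.
Snai1: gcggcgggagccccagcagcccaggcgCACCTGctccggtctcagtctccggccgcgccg

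Twist1 and Twist2 encode basic helix-loop-helix factors that bind E-boxes as dimers with E proteins and act in mesenchyme. Twist1 (chr12:34642536-34644682, plus strand, mm9) had 316 reads in WT and 246 in Igfbp7-/-, or 9.21 and 7.03 RPM, with RPKM of 5.53 (4.70 to 6.46) and 4.22 (3.51 to 5.03). Its log2 ratio of -0.39 had an interval from -0.74 to -0.04, which reaches close to 0 on one side and past 1.5-fold on the other. Twist2 (chr1:93698038-93744605, plus strand, mm9) had 110 and 118 reads, or 3.20 and 3.37 RPM, and RPKM of 2.44 (1.84 to 3.18) and 2.57 (1.96 to 3.31). Its log2 ratio was 0.07 (-0.48 to 0.63), with values on both sides of 0, so no difference was detectable at this depth. Twist1 was 2.26 (1.66 to 3.14) times as abundant as Twist2 per length in WT and 1.64 (1.19 to 2.28) times in Igfbp7-/-, intervals that overlap.

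Zeb1 and Zeb2 encode large zinc finger and homeodomain proteins that repress epithelial genes, and they are held down in epithelial cells by microRNAs of the miR-200 family, which poly(A) libraries do not measure. Zeb1 (chr18:5591858-5775465, plus strand, mm9) had 3580 reads in WT and 1639 in Igfbp7-/-, or 104.3 and 46.8 RPM. Its RPKM was 19.99 (19.1 to 20.9) in WT, the highest of the 6 factors there, and 8.97 (8.37 to 9.61) in Igfbp7-/-. The level was 2.23-fold lower, a log2 ratio of -1.15 (-1.28 to -1.04). Zeb2 (chr2:44839154-44972915, minus strand, mm9) had 3523 and 2581 reads, or 102.6 and 73.7 RPM, with RPKM of 11.3 (10.7 to 11.8) and 8.09 (7.65 to 8.54). Its log2 ratio of -0.48 (-0.58 to -0.37) stayed inside 1.5-fold. Zeb2 shares 3.01% of its exon bases with a noncoding RNA gene on the opposite strand, Gm13476, and a microRNA gene. Whether strand was used in counting is not stated, but Gm13476 had 80 reads in WT and 47 in Igfbp7-/-, few beside those of Zeb2. The exons of the other 9 genes overlap no other annotated gene.

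The Zeb genes therefore differed in how far they were lower. Zeb1 RPKM was 1.77 (1.66 to 1.90) times that of Zeb2 in WT and 1.11 (1.01 to 1.21) times in Igfbp7-/-. Both are expressed in stroma, so they are set beside the cell markers. Relative to the fibroblast collagen Col3a1, Zeb1 was 0.0238 (0.0227 to 0.0250) in WT and 0.0256 (0.0238 to 0.0274) in Igfbp7-/-, nearly the same, whereas Zeb2 was 0.0134 (0.0128 to 0.0141) and 0.0231 (0.0218 to 0.0244). Col3a1, at a log2 ratio of -1.26, was lower than most fibroblast markers. The 10 ran from -2.25 to 0.60 with a median of -0.67, so the likeness of Zeb1 to Col3a1 does not hold for the list. Relative to Pecam1, the endothelial CD31, Zeb1 was 0.205 (0.194 to 0.216) and 0.333 (0.306 to 0.363). Relative to Ptprc, the leukocyte CD45, Zeb2 was 1.47 (1.35 to 1.60) and 2.53 (2.24 to 2.87). Zeb2 was thus lower by less than either the collagen or the leukocyte marker.

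Of the 6 factors 1 was higher and 1 lower, 16.7% each, against 21.4% and 23.0% of all genes. Their median log2 ratio was -0.40. Summed over the 6 factors, RPKM was 58.9 in WT and 42.2 in Igfbp7-/-. The Zeb pair made most of that gap, at 31.2 against 17.1 RPKM, while the Twist pair had 7.97 against 6.79. Zeb1 made up 34.0% of the factor RPKM in WT and 21.2% in Igfbp7-/-. Snai1 made up 4.51% and 13.2%, and Snai2 28.9% and 30.3%. In WT Zeb1 led the set, and in Igfbp7-/- Snai2 did.

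The genes whose proteins work with these factors differed in both directions. Of 27 listed partners and cofactors 26 passed the minimum, 5 were higher, 2 were lower and 19 lay within 1.5-fold, where 44.5% of all genes passed that ratio. Their median log2 ratio was 0.20. Fbxl14, a ubiquitin ligase subunit that marks Snail and Twist proteins for destruction, had 11.9 RPM in WT and 26.9 in Igfbp7-/-. Id3, an inhibitor of helix-loop-helix dimers, had 7.31 and 15.4 RPM. Tcf4, an E protein that pairs with Twist, had 225.4 and 87.1 RPM and was the lowest of those above 10 RPM, while its relative Tcf12 had 71.7 and 123.2 RPM. Among corepressors of the Snail and Zeb proteins, Ctbp1 had 56.6 and 66.3 RPM, Hdac2 22.1 and 19.3 RPM and Kdm1a 134.8 and 126.4 RPM, all within 1.5-fold. Rcor1, the CoREST corepressor that works with Kdm1a, was higher at 21.1 and 36.2 RPM. Of 15 other transition regulators 12 passed the minimum, 3 were higher and 3 lower, 25% each, near the 21.4% and 23.0% of all genes. Their median log2 ratio was 0.23. Among them Sox4 had 221.0 and 405.4 RPM, and the Hippo pathway coactivators Wwtr1 (TAZ) and Yap1 had 271.5 against 167.4 and 211.3 against 140.2 RPM.

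**Figure D3:**
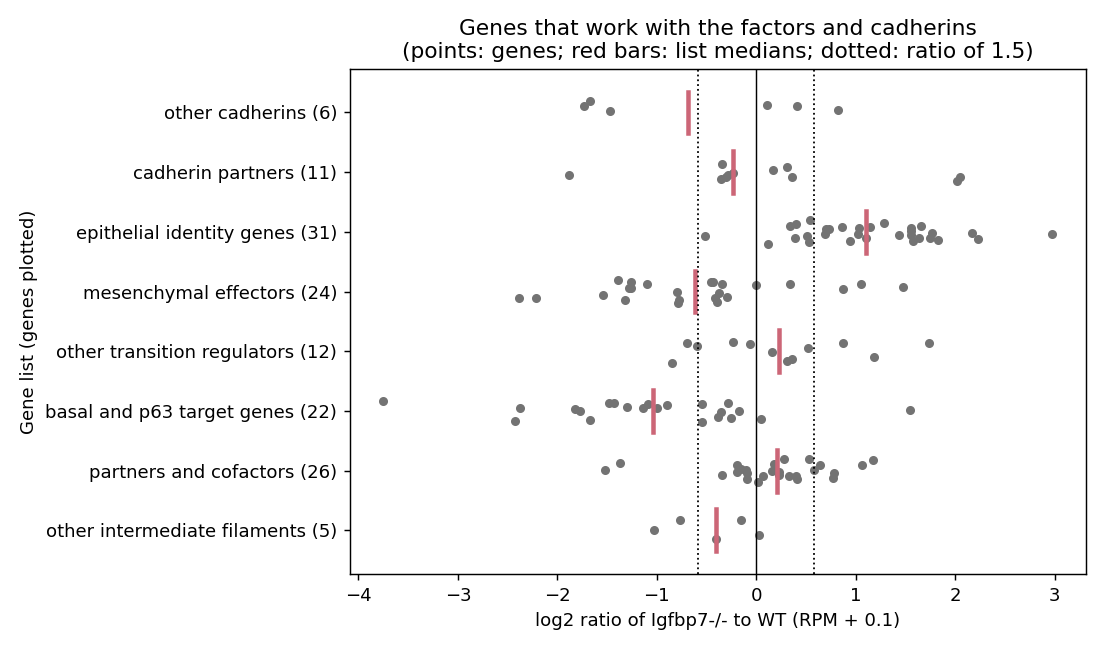
Log2 ratio of the Igfbp7-/- to the WT library (x axis, from RPM + 0.1) for the genes of 8 lists (y axis, with the number plotted), with grey points for genes, red bars for list medians and dotted lines at a ratio of 1.5. The epithelial identity genes centre on 1.11, the basal genes on -1.04 and the mesenchymal effectors on -0.62, and the partners and cofactors, with a median of 0.20, run from -1.52 to 1.17.

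Cdh1 (chr8:109127251-109194146, plus strand, mm9) was abundant in both libraries. It had 11988 reads in WT and 15926 in Igfbp7-/-, or 349.2 and 454.8 RPM, and its RPKM was 79.1 (77.1 to 81.2) and 103.1 (100.8 to 105.4). The library without Igfbp7 was 1.30-fold higher, a log2 ratio of 0.38 (0.33 to 0.43), which is above counting error and below 1.5-fold. Cdh2 (chr18:16747386-16967755, minus strand, mm9) was the lowest of the 10 genes, with 147 reads in WT and 96 in Igfbp7-/-, or 4.28 and 2.74 RPM. Its RPKM was 0.922 (0.723 to 1.16) and 0.590 (0.435 to 0.782). It was 1.54-fold lower, a log2 ratio of -0.62 (-1.20 to -0.10), and it passed 1.5-fold so narrowly that it lay within 1.5-fold with a pseudocount of 1 RPM, with RPKM in place of RPM, or with scaling to the reads on listed genes. Per length Cdh1 was 85.9 (68.2 to 109.6) times Cdh2 in WT and 174.7 (131.6 to 237.1) times in Igfbp7-/-. The balance thus lay far on the Cdh1 side in both.

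The cadherins of other cell types were divided. Of 12 other cadherin genes 6 passed the minimum, 3 were lower and 1, the sparse Cdhr1, was higher, with a median log2 ratio of -0.68. As shares of only 6 genes, 50% were lower and 16.7% higher, where 23.0% and 21.4% of all genes were. Cdh3, the P-cadherin of basal and myoepithelial cells, had 141.4 RPM in WT and 50.9 in Igfbp7-/-. Cdh5, the VE-cadherin of endothelium, had 583.7 and 183.5 RPM, and Cdh13, a cadherin without a cytoplasmic domain found in vessels, had 61.8 and 18.5 RPM. Cdh11, a cadherin of mesenchymal cells, lay within 1.5-fold at 13.5 and 14.6 RPM. Per length Cdh1 was 2.22 (2.12 to 2.33) times Cdh3 in WT and 8.05 (7.51 to 8.63) times in Igfbp7-/-. Against Cdh5 it was 0.543 (0.526 to 0.561) in WT and 2.25 (2.16 to 2.34) in Igfbp7-/-. Cdh1 was thus below Cdh5 in the one library and above it in the other.

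Of the 12 genes for proteins that carry cadherin and nectin junctions, 11 passed the minimum and 8 lay within 1.5-fold. Their median log2 ratio was -0.23. As shares, 18.2% were higher and 9.09% lower, where 21.4% and 23.0% of all genes were. The catenins that bind E-cadherin were among the 8. Ctnnb1, the beta-catenin, had 360.8 RPM in WT and 285.1 in Igfbp7-/-. Ctnna1, the alpha-catenin that links to actin, had 454.1 and 511.3 RPM, and Ctnnd1, the p120-catenin that keeps E-cadherin at the membrane, had 169.5 and 210.2 RPM. Pvrl4 was higher and Ctnnd2 lower, both under 10 RPM. The abundant exception was Mllt4, which encodes afadin, the protein that ties nectins to actin. It had 133.7 RPM in WT and 542.7 in Igfbp7-/-, a log2 ratio of 2.02.

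Vim (chr2:13495554-13504453, plus strand, mm9) was the highest of the 10 genes in both libraries. It had 20412 reads in WT and 11394 in Igfbp7-/-, or 594.6 and 325.4 RPM, and ranked 111th and 185th of the 25810 gene symbols by RPKM. Its RPKM was 324.2 (318.0 to 330.6) and 177.4 (172.8 to 182.1). It was 1.83-fold lower, a log2 ratio of -0.87 (-0.92 to -0.82). The ratio of Cdh1 to Vim RPKM was 0.244 (0.236 to 0.252) in WT and 0.581 (0.561 to 0.601) in Igfbp7-/-. Vim against the luminal keratin Krt18 was 1.81 (1.75 to 1.88) and 0.212 (0.205 to 0.218). Vim was thus above Krt18 in WT and below it in Igfbp7-/-. Of 8 other intermediate filament genes 5 passed the minimum, 2 were lower and none was higher. The 2 are 40% of only 5 genes, where 23.0% of all genes were lower. Nes, which encodes nestin and polymerises with vimentin, had 26.9 and 15.8 RPM.

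The mesenchymal effectors were lower more often than higher. All 24 passed the minimum, 12 were lower, 3 were higher and 9 lay within 1.5-fold, with a median log2 ratio of -0.62, so 50% were lower where 23.0% of all genes were. Ncam1, a neural adhesion molecule gained in transition models, had 11.9 RPM in WT and 2.20 in Igfbp7-/-. Acta2, which is also among the myoepithelial markers, had 1052 and 226.7 RPM. On the other side, Itgav, the alphaV integrin subunit that activates latent TGF-beta, had 253.1 and 704.8 RPM, and Tnc, the matrix protein tenascin C, had 73.6 and 135.2 RPM. The group thus held members with opposite differences.

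Markers of the stromal cells that express Vim and Zeb genes were lower more often than higher, where 23.0% of all genes were lower and 21.4% higher. The summed RPM of 10 fibroblast markers was 9841 in WT and 5106 in Igfbp7-/-, with 5 lower and 1 higher. Of these 10, Col1a1, Col1a2 and Col3a1 are also among the mesenchymal effectors, and Col3a1 alone had 4670 and 1950 RPM. Pdgfra, Fbln1 and Mfap5 had log2 ratios above 0. The 8 endothelial markers summed to 1427 and 465.1 RPM, with 7 lower and none higher. All 10 leukocyte markers were lower, at a summed 795.4 and 166.5 RPM. The 6 pericyte markers summed to 178.1 and 143.5 RPM with 4 lower, the 6 adipocyte markers to 562.9 and 192.4 RPM with 3 lower and 1 higher among the 4 that passed the minimum, and the 6 Schwann cell markers to 140.3 and 168.7 RPM with 2 lower and 2 higher among 5. The endothelial marker Cdh5 is also among the other cadherins, and the pericyte marker Pdgfrb is also among the mesenchymal effectors. No marker was at 0 in both libraries. Ptprc had 43.5 and 18.1 RPM and Pecam1 322.5 and 88.9 RPM although the depletion was aimed at CD45 and, by the methods, CD31, where the labels write CD35. Vim relative to Col3a1 was 0.386 (0.378 to 0.394) in WT and 0.506 (0.492 to 0.521) in Igfbp7-/-, so Vim was lower by less than this collagen. That reading depends on the marker, since the 10 fibroblast markers ran from a log2 ratio of -2.25 to 0.60. Their median was -0.67, and Vim, at -0.87, lay below it. The part of these cells in the Vim, Zeb1, Zeb2 and Cdh5 differences was not tested.

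**Figure D4:**
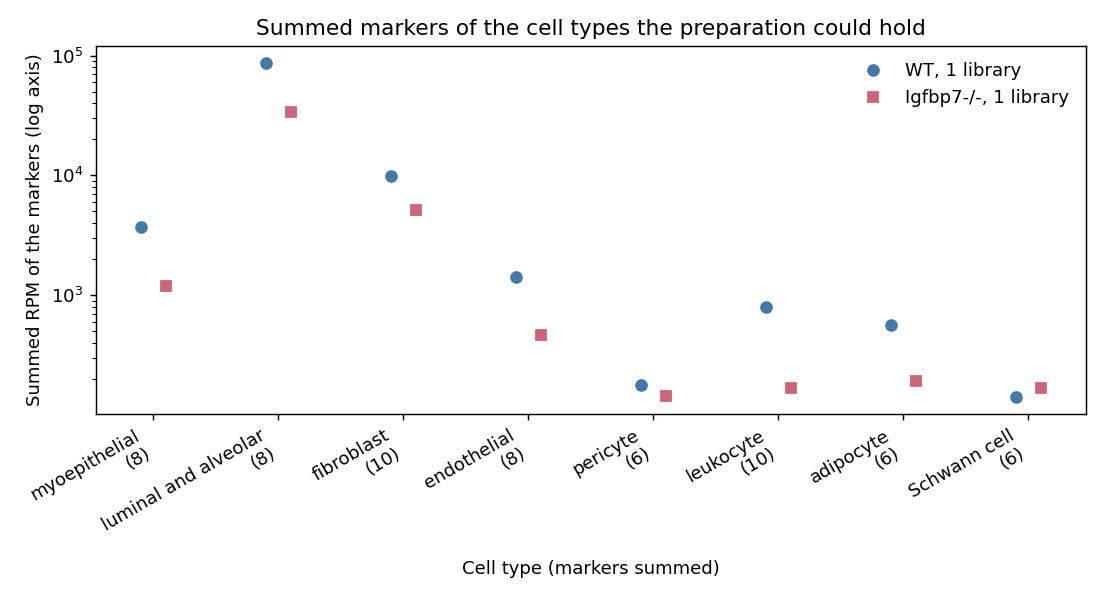
Summed RPM (log y axis) of the markers of 8 cell types (x axis, with the number of markers) in the WT library (blue circles) and the Igfbp7-/- library (red squares). The red square is below the blue circle for 7 of the 8 types, with the widest gap for leukocytes, at 795.4 against 166.5 RPM, and above it for Schwann cells.

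The genes of epithelial identity stood on the other side. The list holds epithelial genes that Snail, Zeb or Twist factors are known to repress and regulators that oppose these factors. Of 32 listed genes 31 passed the minimum, 23 were higher, none was lower and 8 lay within 1.5-fold. Their median log2 ratio was 1.11, and 74.2% of them were higher where 21.4% of all genes were. Cgn, which encodes the tight junction protein cingulin, was the highest at 15.7 RPM in WT and 123.8 in Igfbp7-/-, a log2 ratio of 2.97. Krt18 had 250.4 and 1174 RPM, a log2 ratio of 2.23. The splicing regulators Esrp1 and Esrp2, which maintain epithelial isoforms, had 65.2 and 118.1 RPM and 9.85 and 35.3 RPM. Cdh1, at 0.38, was below the median of these genes, and so was Epcam, the epithelial adhesion molecule, at 338.3 and 481.9 RPM, a log2 ratio of 0.51. Per length Cdh1 was 0.482 (0.465 to 0.500) of Epcam in WT and 0.441 (0.427 to 0.454) in Igfbp7-/-, but 0.533 (0.513 to 0.554) and 0.236 (0.229 to 0.242) of the luminal keratin Krt8.

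Luminal markers did not move as 1 group. The luminal keratins Krt8, Krt18 and Krt19 were higher, and Krt8 and Krt18 are also among the epithelial identity genes. The milk protein genes Csn2, Csn3, Wap and Lalba were lower, with Csn2 at 53087 RPM in WT and 19970 in Igfbp7-/-. Elf5, a transcription factor of alveolar cells, had 137.3 and 95.9 RPM. The 8 markers together summed to 87448 and 33849 RPM, most of it casein. The part of cell composition in the higher epithelial genes was not tested.

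Promoter windows were found for 22 of the 32 epithelial identity genes, and 16 of the 22 held CAGGTG in at least one window. With 10 genes without a window, fewer than 80% of the list could be read, so a comparison of its share with the 20.2% of all windows is void, and the genes had been picked partly as targets of these repressors. The 4 genes with 3 or more matches before the start are shown because they give the densest examples of the E-box that the Snail and Zeb proteins read. Capitals mark CAGGTG or CACCTG, sequences run 5′ to 3′ on the gene's strand and end at or before the start site, and all are from RefSeq, GRCm38.p6. Crb3, which encodes an apical polarity protein, is from chr17:57062073-57062200 on the plus strand. Lsr, a receptor of tricellular junctions, is from chr7:30973523-30973719, Spint2, a protease inhibitor of epithelia, from chr7:29281978-29282061 and Ap1m2, a subunit of the epithelial sorting adaptor AP-1B, from chr9:21312334-21312424, all on the minus strand.
Crb3: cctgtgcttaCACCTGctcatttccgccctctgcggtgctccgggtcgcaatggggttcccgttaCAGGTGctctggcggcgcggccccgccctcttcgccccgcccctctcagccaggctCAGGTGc
Lsr: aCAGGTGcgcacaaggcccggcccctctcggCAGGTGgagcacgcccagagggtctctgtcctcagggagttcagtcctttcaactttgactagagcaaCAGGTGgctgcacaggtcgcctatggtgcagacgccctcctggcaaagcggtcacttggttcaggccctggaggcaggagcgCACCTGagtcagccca
Spint2: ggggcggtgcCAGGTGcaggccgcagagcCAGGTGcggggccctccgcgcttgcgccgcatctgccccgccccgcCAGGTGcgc
Ap1m2: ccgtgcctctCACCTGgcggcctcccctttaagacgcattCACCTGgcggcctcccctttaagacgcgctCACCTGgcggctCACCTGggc

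All of these 4 genes had higher values in the Igfbp7-/- library, but not to the same degree. So did 30 of the 31 epithelial identity genes past the minimum, where 7244 of all 14026 genes did. Among the 30 was Cgn, whose window held no match. The values of these 4 therefore do not tell E-box matches apart from the rest of the list. Crb3 had 6.12 RPM in WT and 19.5 in Igfbp7-/-, a log2 ratio of 1.66, and Lsr had 6.87 and 15.3 RPM, a log2 ratio of 1.14. Spint2 had 69.7 and 101.0 RPM, a log2 ratio of 0.53, and Ap1m2, the gene with 4 matches packed within 81 bases of its start, had 16.9 and 21.3 RPM, a log2 ratio of 0.34, and none of the 4 counting intervals included 0. The last 2 lay within 1.5-fold.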

How the data were processed

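Poly(A) RNA from 1 WT and 1 Igfbp7-/- preparation was read by SOLiD paired-end sequencing of 75 and 35 bases. The authors deposited, for each of 25860 rows, a read count, RPM (reads relative to all mapped reads of that library) and RPKM (RPM per kilobase of transcript). The submitters' processing notes name Bowtie 0.12.3, SAMtools 0.1.15 and mm9, whereas the methods name a human build. Rows without a symbol (50, holding 0.0408% and 0.0484% of the library totals) were left out. Log2 ratios were computed from RPM + 0.1 for genes reaching 1 RPM in either library, and 1.5-fold, the threshold of the methods, stood in for a test. Intervals cover counting error only. A count of 3 reads corresponds to 0.0874 and 0.0857 RPM.

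The 10 genes, the 8 gene lists and the 8 marker lists were chosen with earlier results of these data known, so their counts are descriptions. All 10 genes were named, and from each list up to the 2 highest and 2 lowest ratios among genes of at least 10 RPM past 1.5-fold. Cell markers, genes named for their role beside a member, and genes named for their promoter were added, and those named for their role were chosen after their values were seen. Gene spans are from GENCODE vM1 on NCBIM37 and promoters from RefSeq. Alternatives were other pseudocounts, minimums, thresholds and scalings, including TMM factors from edgeR 4.0.16 and size factors from DESeq2 1.42.0 in R 4.3.3, neither used for a test. Other steps used Python 3.11.15, numpy 2.4.6, scipy 1.17.1, pandas 2.3.3 and matplotlib 3.10.9, and the scripts were tested on simulated data.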

Additional observations from a re-analysis of the deposited data

How the results depend on the processing

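No paired analysis was possible because each genotype had 1 library, and for the same reason no replicate could be left out. When 10 RPM were required in either library, Snai1, Twist1, Twist2 and Cdh2 were not considered, so that of the 6 genes left 0 were higher, and the median log2 ratio was -0.67. With a ratio threshold of 2 the lower genes were 2, Trp63 and Zeb1. Under all alternatives run on them, Trp63, Zeb1 and Vim stayed lower than 1/1.5 of WT at the 1.5 threshold, and Snai1 stayed higher wherever it passed the minimum. Zeb2 became lower (-0.62) and Twist2 changed sign (-0.07) when the 20 most abundant genes were left out of the scaling, and Cdh2 was within 1.5-fold (-0.45) with scaling to the reads on listed genes. Over all genes the main counts were 3006 higher and 3231 lower with a median of 0.03. They were 4248 and 2587 with a median of 0.22 when scaled to the reads on listed genes, 2328 and 3863 with a median of -0.11 without the 20 genes, 4741 and 5279 with no minimum, 1696 and 1672 with a minimum of 10 RPM, and 1352 and 1936 at a threshold of 2. Medians of the 8 lists kept their sign under all 13 alternatives. The E-box written as CANNTG was in 72.3% of all windows. Counting error limits Twist2, Cdh2 and Snai1 most.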
